A study of Drosophila melanogaster with 4 samples.

Results

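Long domains of histone H3 mono-methylated at lysine 9 (H3K9me1) were described in nuclei of Drosophila melanogaster larvae of the third instar, from the wild-type strain Oregon-R. They are the enriched regions of 10 kb or more in the list that the authors deposited for both ChIP replicates together. The members were chosen by their measured length, on the large chromosome arms 2L, 2R, 3L, 3R and X, and numbered 843 of the 13596 enriched regions listed there and of 13702 in all. The study holds 2 ChIP samples and 2 samples of input chromatin, each of which served as background for 1 ChIP sample. The titles of all 4 samples carry the words new lot 2, without saying what the lot is of. All 4 share the strain, the stage and nuclei as the material, with no mutant or treatment. Whole larvae hold many tissues, so a domain can come from some of their cells. The labels do not say whether the replicates come from separate collections of larvae, so their spread may be technical in part.

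Lysine 9 of histone H3 can carry 1 methyl group or more, and the mono-methylated form is both a mark in its own right and the substrate for further methylation. The more methylated forms are bound by Heterochromatin Protein 1 and are best known from the compacted chromatin around fly centromeres and on chromosome 4. A ChIP-seq region list reduces read enrichment over input to intervals, so a long domain is a stretch over which the caller did not end the enrichment. Gene annotation and sequence on release 5, the genome build named in the file headers, were not used here, and regions are named by position.

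The lists of replicate 1 and replicate 2 held 8304 and 11820 enriched regions, called domains below. Read depth is not known from the files, so no counting error can be given for the values. The length rule used the calls behind every value below, and the combined and single lists share their libraries. All values are therefore descriptions without a test, and differences between replicates are given as the 2 values or as mean ± SD over n = 2.

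Long domains made up 6.20% of the domains of the 5 large arms in number and 29.5% of the bases these covered. They spanned 14.7 Mb, or 12.4% of the arms. Their median length was 14.2 kb (quartiles 11.75 and 19.5 kb), the shortest measured 10001 bp and the longest 81.7 kb. Most were close to the lower limit: 473 measured 10 to 15 kb, 169 measured 15 to 20 kb, 136 measured 20 to 30 kb, 52 measured 30 to 50 kb and 13 measured 50 kb or more.

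The limit of 10 kb cuts through a continuous distribution. Just inside it lay domains of 10001 bp on 2L (from 5085801), 10018 bp on X (from 8948681) and 10025 bp on 2L (from 2195853), with scores of 0.929, 0.741 and 1.26. Just outside lay domains of 9996 bp on 3R (from 24413689), 9996 bp on 3L (from 16961912) and 9993 bp on 3L (from 3302957), with scores of 0.616, 0.983 and 0.800. The 135 domains of 10 to 11 kb had a median score of 0.813, and the 184 of 9 to 10 kb one of 0.735.

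The arms differed in how densely they carried long domains. Arm 2R held 197, or 9.32 per Mb, and 15.8% of its length lay in them. Arm 3R held 198 (7.10 per Mb, 13.0% of its length), 3L held 170 (6.93 per Mb, 13.0%), X held 145 (6.47 per Mb, 10.3%) and 2L held 133 (5.78 per Mb, 9.76%). On X 4.92% of all domains reached 10 kb and on 2L 5.49% did, against 6.09% on 3L, 6.49% on 3R and 8.25% on 2R. On X 17.2% of the long domains reached 20 kb, and on the other 4 arms between 23.4% and 26.5% did.

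Each replicate's own list also put 2R first on this measure, but with very different levels. Domains of 10 kb or more numbered 8.56 per Mb of 2R in replicate 1 and 3.22 per Mb in replicate 2, a mean of 5.89 ± 3.78 (SD, n = 2). On X there were 4.59 and 3.21 per Mb, a mean of 3.90 ± 0.978 (SD, n = 2). X had the lowest density of the 5 arms in replicate 1 and came close behind 2R in replicate 2, so the place of X in the order of the arms differed between the replicates.

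**Figure D1:**
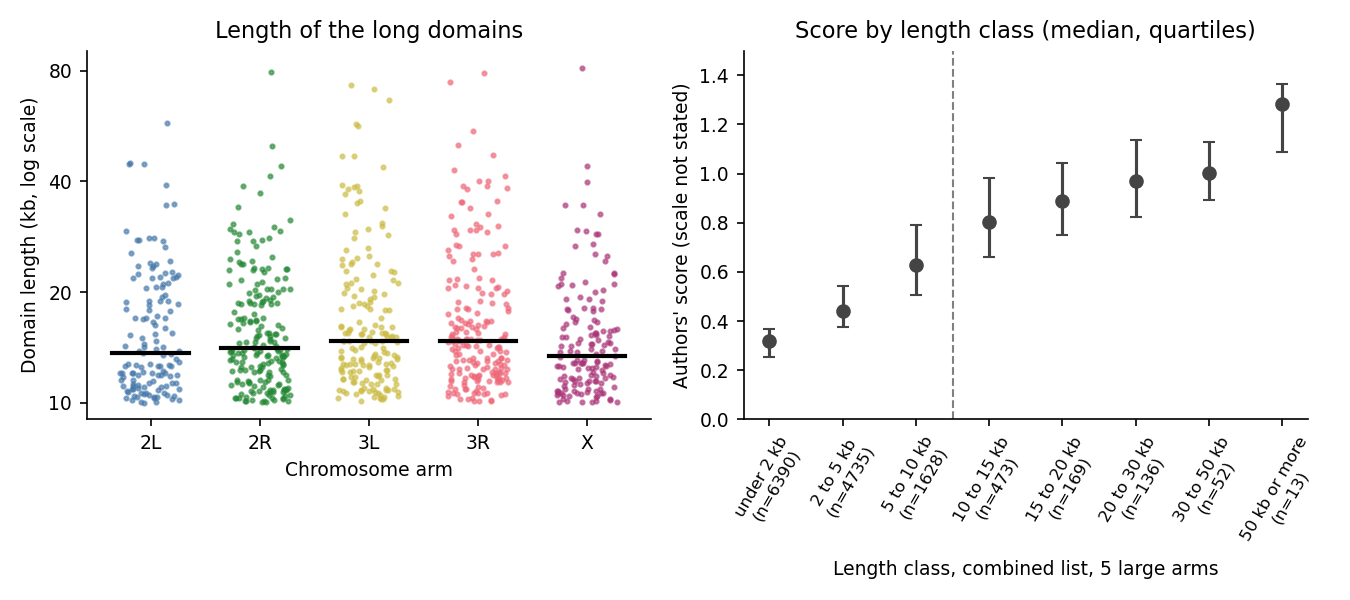
Left, length of each long domain (kb, log scale) by arm, 1 point per domain, with a bar at the median, which ran from 13.4 kb on X to 14.7 kb on 3R. Right, the authors' score (median, with bars to the quartiles) by length class for all domains of the 5 large arms in the combined list; the dashed line marks 10 kb, and the median is 0.317 under 2 kb and 1.28 at 50 kb or more.

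Long domains were denser at the tips of the arms and sparse next to most centromeres. The outermost 2 Mb of the 5 arms held 120 long domains, or 12 per Mb, against 7.03 per Mb between the tips and the centromere-proximal 2 Mb. At the tips 22.8% of the sequence lay in long domains, against 12.1% in the middle stretches. The density at the tip was 14.5 per Mb on 3L, 13 on X, 12 on 2L, 11 on 2R and 9.5 on 3R. The middle stretches had 6.77 per Mb on 3L, 6.35 on X, 5.68 on 2L, 10.1 on 2R and 6.65 on 3R.

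The same contrast was computed from each replicate's own long domains. Tips held 10.6 per Mb in replicate 1 and 5.70 in replicate 2 (8.15 ± 3.465, SD, n = 2), against 6.61 and 2.32 per Mb in the middle stretches (4.47 ± 3.03, SD, n = 2). By arm, the tip was denser than the middle in both lists on 2L, 3L, 3R and X. On 2R the tip was denser in replicate 2, with 4.00 against 3.38 per Mb, and less dense in replicate 1, with 9.00 against 9.45 per Mb.

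The 2 Mb next to the centromere held 1 long domain on 2L and 2 each on 2R, 3L and X. Arm 3R stood apart with 20 there, and its first long domain began at base 1 of the assembled arm and ran to 10536. The nearest long domain to the assembled centromeric end lay 1754 kb away on 2L, 1566 kb on 2R, 1685 kb on 3L and 1475 kb on X. How much of these ends short reads can be placed on was not analysed here.

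In windows of 1 Mb counted from the tip, the number of long domains ran from 0 to 18, with a median of 7 over 117 full windows. The fullest was the window from 1 to 2 Mb on X, with 18 long domains over 390 kb, followed by the first Mb of 3L, with 17 over 392 kb. Of the 117 windows, 32 held 10 or more, and these 27.4% of the windows held 46.3% of the long domains. In 5 windows there was none, and 4 of these lay next to a centromere. The fifth lay inside 2L, from 15000001 to 16000000.

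**Figure D2:**
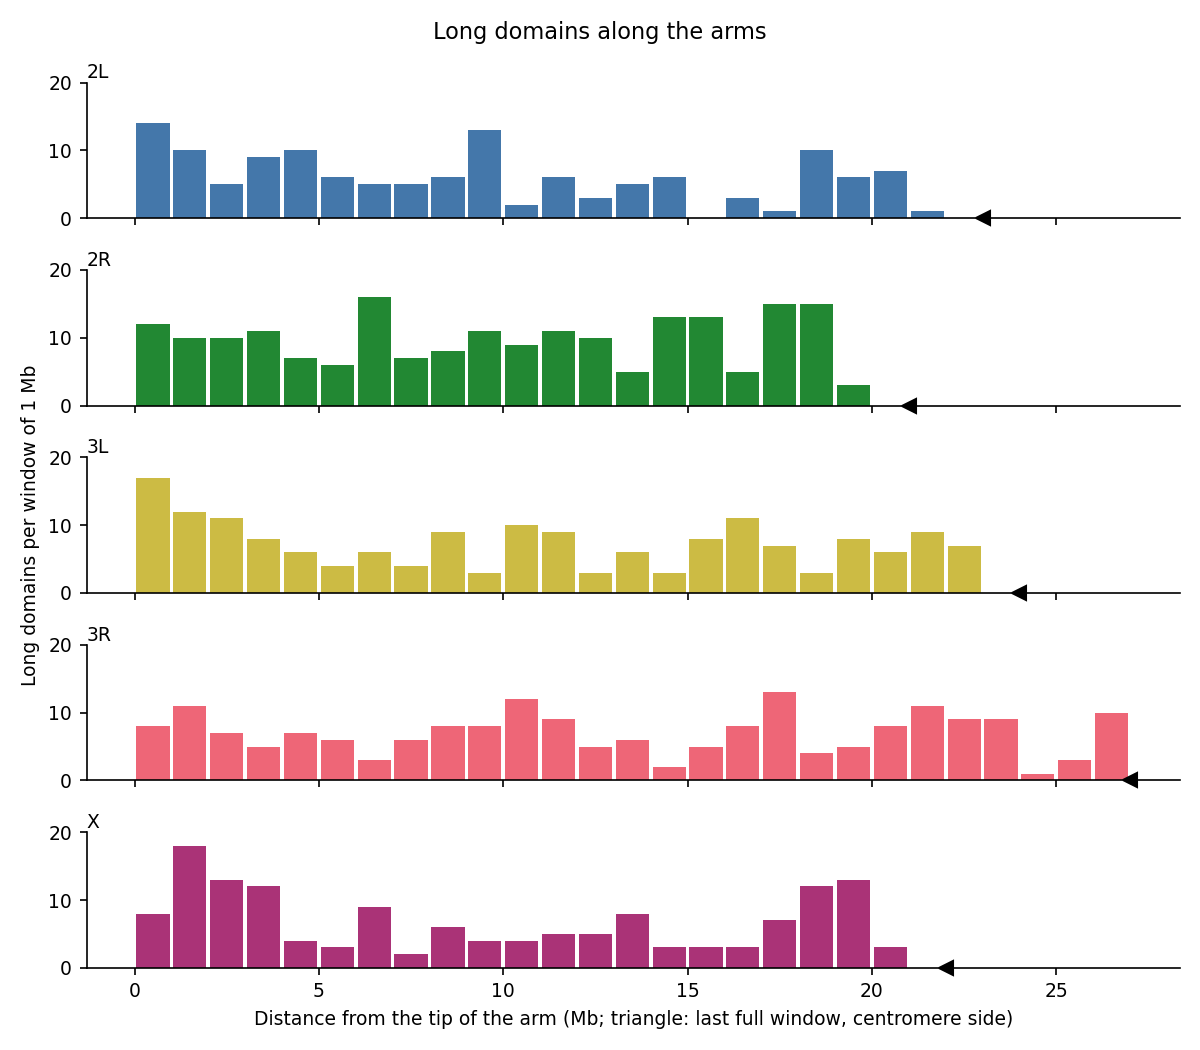
Number of long domains in each full window of 1 Mb, plotted against the distance of the window from the tip of its arm (Mb), with the triangle at the last full window on the centromere side. Each arm has a window with 10 or more among its outermost 2 and others at scattered places inside, and the last window of 2L, 2R, 3L and X is empty while that of 3R holds 10.

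Neighbouring long domains lay a median of 48.5 kb apart (quartiles 9.715 and 147 kb, over 838 pairs). The shortest distance was 6 bp, and 150 pairs (17.9%) were at most 5 kb apart. At the other end, 159 pairs lay more than 200 kb apart. In the lists of replicate 1 and replicate 2, domains of this length lay a median of 53.5 and 173.9 kb apart. By arm the median distance in the combined list was 42.5 kb on 2R, 45.2 kb on 3L, 49.3 kb on X, 53.9 kb on 3R and 72.2 kb on 2L.

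The stretches with no long domain were not empty of the mark. The widest ran on 2L from 14625992 to 16264839, over 1639 kb, and held 91 shorter domains that covered 13.7% of it. The next ran on X from 4573932 to 5588724, over 1015 kb, with 123 shorter domains over 31.9% of it. Other stretches above 900 kb lay on 3R from 2939322 to 3930921 (106 shorter domains, 25.3% covered), on 3R from 15148032 to 16105943 (96 shorter domains, 26.0% covered) and on 2L from 16531355 to 17463460 (85 shorter domains, 26.0% covered). The longest domains inside these 5 measured 9837, 8214, 8476, 7769 and 9633 bp in the order given. Over the 5 arms, shorter domains covered 35.1 Mb of the 104.3 Mb outside long domains, a larger share than in each of these stretches.

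Close neighbours were also common for domains of any length. The nearest domain of any length lay a median of 0.368 kb from a long domain and 0.622 kb from a shorter one. A neighbour within 1 kb was present for 76.8% of the long domains and for 62.0% of the shorter ones.

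Long domains that lay at most 5 kb apart were joined into clusters. There were 114 clusters, of which 84 held 2 members, 25 held 3, 4 held 4 and 1 held 5. They took in 264 long domains (31.3%), with a median span of 39.0 kb. Link distances of 2 and 20 kb put 20.6% and 54.7% in clusters, and at 5 kb the lists of replicate 1 and replicate 2 had 29.2% and 13.7% of their own long domains in clusters. Members of clusters had a median length of 14.7 kb and a median score of 0.908, and the other 579 long domains had 14.0 kb and 0.852.

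The cluster with most members lay near the tip of 3L, from 658427 to 826866. Its 5 members filled 95.2% of 168 kb, and the distances between them ran from 385 to 3821 bp. Its longest members were neighbours of 57.4 and 56.8 kb, and all 5 had at least 50% of their length in domains of each replicate. The cluster of 4 members on X, from 1116763 to 1229586, filled 93.3% of 113 kb, in the same window as the longest of all members. Its members ran from 17.7 to 44.0 kb, and replicate 2 covered 73.0% of their bases against 94.5% in replicate 1. The cluster of 4 members on 3R, from 6336461 to 6435043, filled 97.8% of 98.6 kb, and replicate 1 and replicate 2 covered 98.7% and 94.2% of its members. The other clusters of 4, both shorter and also on 3R, ran from 14873538 to 14957567 and from 22707730 to 22769561. Replicate 1 covered 99.9% and 98.3% of their members and replicate 2 covered 78.5% and 65.4%.

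Some borders between neighbouring long domains were bridged by a single domain of 1 replicate, and none was bridged in both replicates. Of the 18 distances of up to 100 bp, 14 were bridged by a single domain of replicate 1 and 1 by a single domain of replicate 2. Of the 52 distances above 100 and up to 1000 bp, 9 were bridged in replicate 1 and none in replicate 2. Distances of up to 100 bp were found between 7.44% of all neighbouring domains of the combined list, 6.26% of those of replicate 1 and 5.13% of those of replicate 2. The number of long domains depends on how such short distances are treated. Joining combined domains within 1 kb gave 1448 long domains over 31.0 Mb, the longest of 171.5 kb.

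**Figure D3:**
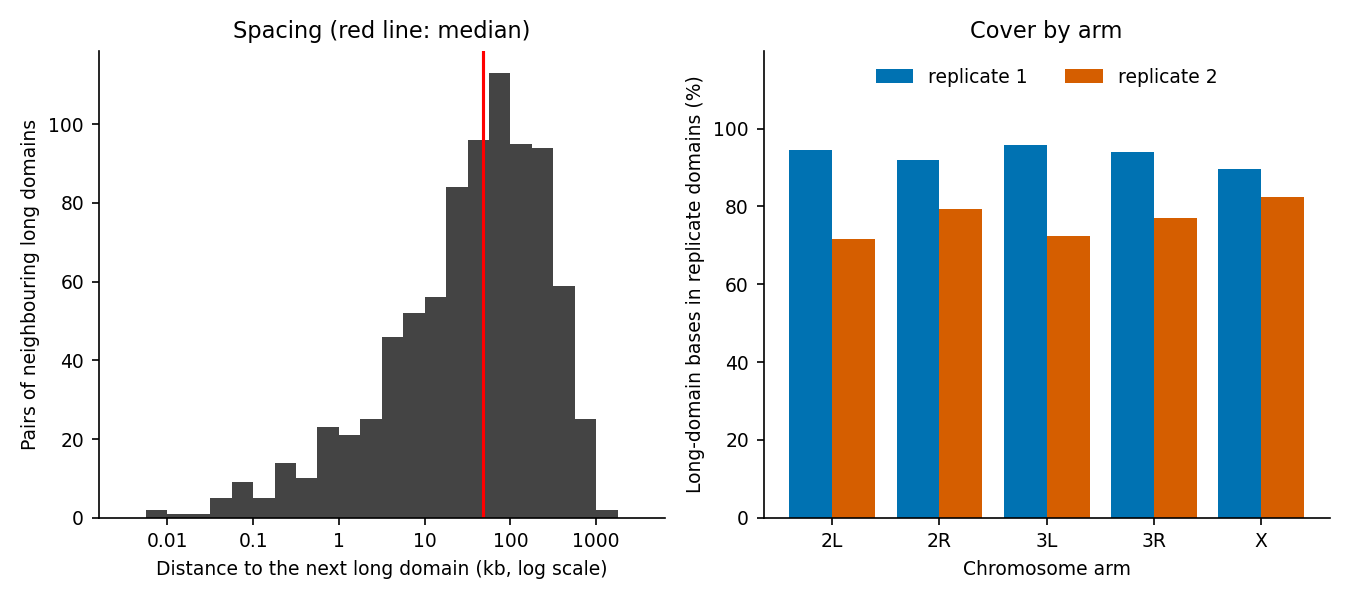
Left, distance from each long domain to the next on the same arm (kb, log scale) for 838 neighbouring pairs, with a red line at the median of 48.5 kb and a tail that reaches down to 6 bp. Right, percentage of the long-domain bases of each arm inside domains of replicate 1 and of replicate 2; the difference is widest on 3L and 2L and narrowest on X.

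The score deposited with each domain has no stated scale and is used here only within 1 list. Long domains scored from 0.364 to 1.70, with a median of 0.873, against a median of 0.378 for the shorter domains of the same arms. Of the long domains, 590 (70.0%) were in the top 10% of scores, against 770 (6.04%) of the shorter ones. Longer classes of long domains also had higher scores, with medians of 0.803 at 10 to 15 kb, 0.888 at 15 to 20 kb, 0.969 at 20 to 30 kb, 1.00 at 30 to 50 kb and 1.28 at 50 kb or more. Over the 843 long domains, which share the same libraries, Spearman's rho between length and score was 0.30 and Pearson's r was 0.30. By score, the best long domain ranked 8 in the combined list.

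That domain lay on 3R from 12030976 to 12085894, spanned 54.9 kb and scored 1.70. It lay wholly inside 1 domain of replicate 1, while replicate 2 covered 91.3% of it in 6 domains. The long domain with the second score, 1.68, was short at 11.9 kb and lay on 3L from 22826247 to 22838115, among the few in the centromere-proximal 2 Mb of that arm. Single domains of replicate 1 and replicate 2 covered 100.0% and 96.2% of it. The longest member of all, on X from 1441268 to 1523003, had the third score, 1.67. Next came domains of 14.7 kb on 3L from 9364195 to 9378873 and of 12.8 kb on X from 1974058 to 1986900, with scores of 1.67 and 1.65. All 5 were covered to at least 91.3% by each replicate.

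By arm the median score of long domains was 0.906 on X, 0.892 on 2L, 0.883 on 2R, 0.869 on 3R and 0.850 on 3L. The quartiles of each arm enclosed the medians of the other 4, so the arms overlapped widely in score. Long domains of the outermost 2 Mb had a median score of 0.940, against 0.852 in the middle stretches. The 27 of the centromere-proximal 2 Mb had a median of 0.936, close to that of the tips.

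Both replicates covered most of the long-domain sequence, and replicate 1 covered more. Domains of replicate 1 held 93.4% and domains of replicate 2 held 76.5% of the long-domain bases, a mean of 85.0% ± 11.9 (SD, n = 2). Replicate 1 also covered more at 5 to 10 kb, where it held 82.1% of the bases and replicate 2 held 68.3%, while under 2 kb it held 34.9% and replicate 2 held 45.9%. Over all shorter domains these opposite differences came to 61.4% in replicate 1 and 61.0% in replicate 2. Both lists together held all but 1.02% of the long-domain bases, and 70.9% lay in both. Among single long domains, the share covered by either list was never below 70.9%.

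At least 50% of the length lay in replicate 1 domains for 815 long domains (96.7%), against 55.5% of all domains of the large arms. The same held in replicate 2 for 728 (86.4%), against 60.6% of all domains. In both at once it held for 700 (83.0%), against 29.4% of all domains, and with 80% or 90% of the length asked for in both it held for 385 or 148. The length rule and the replicate lists use the same reads, so nothing is read from these excesses. Of the other 143 long domains, 115 were covered to 50% by replicate 1 alone and 28 by replicate 2 alone.

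Long domains carried by a single replicate had lower scores than the other long domains. The score belongs to the list of both replicates together, so it is not independent of the cover by each. The median score was 0.918 for the 700 covered in both, 0.647 for the 115 of replicate 1 alone and 0.591 for the 28 of replicate 2 alone. All 3 lay above the median of 0.388 over all domains of the large arms. Among the fifth of long domains with the lowest scores, 49.4% were covered to 50% in both replicates, and among the fifth with the highest scores 99.4% were. Those of replicate 1 alone made up 20.3% of the long domains of 2L, 18.8% of 3L, 14.65% of 3R, 8.63% of 2R and 6.90% of X. They also came next to each other in order along the arm, at any distance. Of the 115, 57 (49.6%) had a neighbouring long domain of the same kind. Of the 700 covered in both, 142 (20.3%) had a neighbour of replicate 1 alone. The differences between arms were not taken out of this comparison.

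Cover differed by arm in opposite ways for the replicates. On each arm only 0.864% to 1.33% of the long-domain bases lay in neither list. What 1 replicate left uncovered thus mostly lay in domains of the other, so the opposite order was partly fixed in advance. In replicate 1, X had the lowest share of its long-domain bases covered, 89.6%, and 3L the highest, 95.9%. In replicate 2, X had the highest, 82.5%, and 2L the lowest, 71.6%. Replicate 2 lay below replicate 1 by 7.12 percentage points on X, 12.8 on 2R, 17.1 on 3R, 23.0 on 2L and 23.6 on 3L. For single long domains, replicate 2 covered more than replicate 1 in 35.2% of those on X and in 13.5% to 24.9% of those on the other arms.

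**Figure D4:**
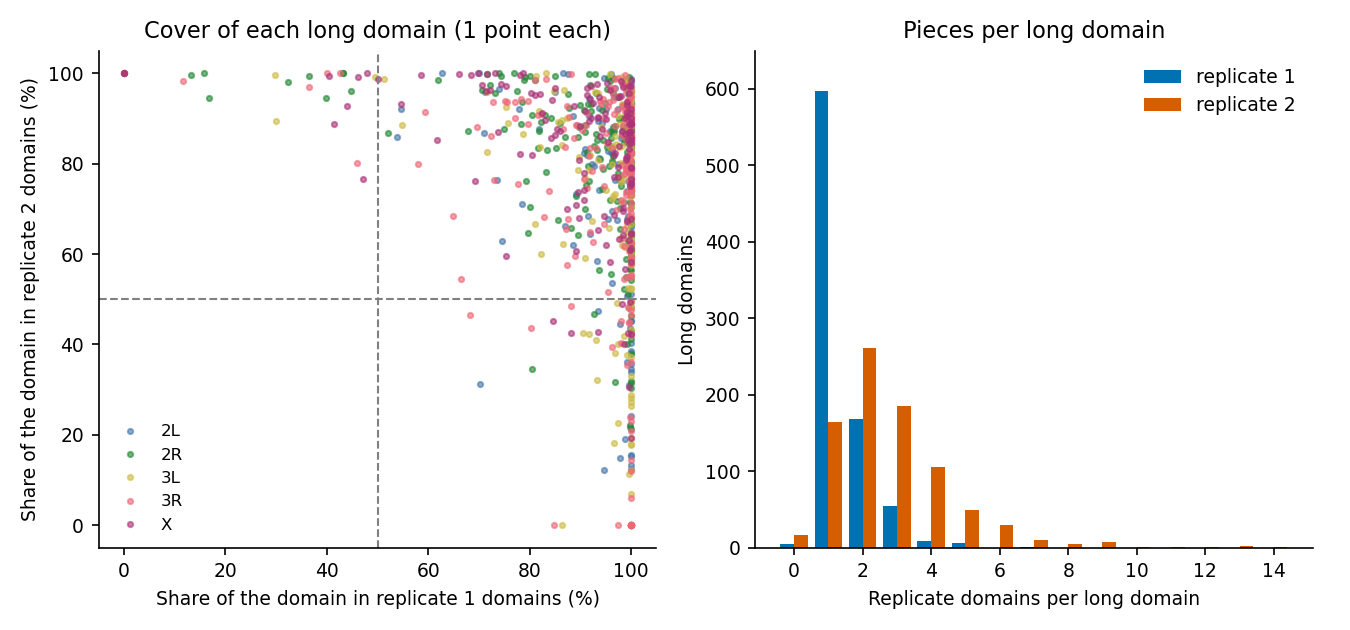
Left, the percentage of each of 843 long domains inside replicate 1 domains (x axis) and replicate 2 domains (y axis), coloured by arm, with dashed lines at 50%; most points lie at the right edge, and no point has less than 50% in both. Right, how many long domains are overlapped by each number of replicate domains; 598 have a single domain of replicate 1, and 165 a single domain of replicate 2.

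Replicate 2 broke the long domains into more pieces, a piece being a replicate domain that overlaps the long domain by 1 bp or more. Replicate 1 had a single piece over 598 long domains (70.9%), and replicate 2 over 165 (19.6%). The mean number of pieces was 1.39 in replicate 1 and 2.79 in replicate 2, 2.09 ± 0.989 (SD, n = 2). Replicate 2 had more pieces in 583 long domains, replicate 1 in 94, and in 166 the numbers were equal. A single piece held at least 90% of the domain in 536 cases in replicate 1 and in 97 in replicate 2, and in 42 cases in both.

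In replicate 1 the mean number of pieces stayed between 1.36 and 1.64 in the 5 length classes, with 1.37 at 10 to 15 kb and 1.46 at 50 kb or more. In replicate 2 it was 2.02 at 10 to 15 kb, 2.98 at 15 to 20 kb, 3.68 at 20 to 30 kb, 5.23 at 30 to 50 kb and 9.62 at 50 kb or more. Per 10 kb of long domain, replicate 2 had 1.66 pieces in the first of these classes and 1.46 in the last, and replicate 1 had 1.13 and 0.223. No domain of replicate 2 exceeds 42.0 kb, so members much longer than this cannot be whole in 1 piece there.

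X was the arm on which the replicates differed least in this respect. Replicate 1 had a single piece over 54.5% of the long domains of X and over 69.0% to 85.7% of those of the other arms. Replicate 2 had a single piece over 31.0% on X and over 15.2% to 19.6% on the other arms. Breaks, uncovered stretches between pieces inside a long domain, numbered 3.89 per 100 kb on X in replicate 1 and 1.16 to 2.54 on the other arms. In replicate 2 they numbered 9.03 per 100 kb on X and 10.4 to 10.9 elsewhere. Over all arms the mean of the replicates was 6.32 ± 5.72 (SD, n = 2) per 100 kb. Joining replicate domains within 1 kb of each other left 2.19 breaks per 100 kb and 1.37 pieces per long domain, as means of the replicates.

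Most breaks were short, and most of their bases lay in domains of the other replicate. Only 1.02% of the long-domain bases lay in neither list, so this cover was largely fixed in advance. Replicate 1 had 335 breaks in 239 long domains, with a median of 375 bp and a longest of 7203 bp. Replicate 2 had 1523 in 661 long domains, with a median of 627 bp and a longest of 17877 bp. Domains of replicate 2 covered 87.8% of the bases in the breaks of replicate 1, and domains of replicate 1 covered 98.05% of those in the breaks of replicate 2. Breaks made up 26.9% of the bases that replicate 1 left uncovered and 47.0% of those that replicate 2 left uncovered. The rest lay at the ends of long domains or in the few long domains that the replicate did not touch at all. Breaks of both replicates touched in 81 places.

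The ends of the long domains were closer to those of replicate 1. Over the 1676 ends with replicate 1 domains, the outermost replicate domain ended a median of 2 bp beyond the end of the long domain. Over the 1652 ends with replicate 2 domains it ended a median of 256 bp inside it. Within 200 bp of the long domain's end lay 54.2% of the ends in replicate 1 and 39.3% in replicate 2. Replicate 1 reached past the end in 50.7% of cases and replicate 2 in 20.2%.

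The longest member of each arm shows the difference in detail. On X the domain from 1441268 to 1523003 was covered by 2 pieces of replicate 1, of 7.95 and 73.1 kb inside it, to 99.2% in all. Replicate 2 covered 93.1% of it in 9 pieces, of which the longest measured 38.9 kb. On 2R the domain from 6914844 to 6994486 (79.6 kb, score 1.11) had 2 pieces of replicate 1 over 99.9% of it and 13 of replicate 2 over 84.6%. On 3R the domain from 10228071 to 10307249 (79.2 kb, score 1.04) had 1 piece of replicate 1 over 99.6% and 13 of replicate 2 over 78.3%. On 3L the domain from 8809409 to 8882782 (73.4 kb, score 1.09) had 1 piece of replicate 1 over 99.4% and 14 of replicate 2 over 77.1%, the most pieces of any member. These 4 were therefore covered to 99.2% to 99.9% by 1 or 2 pieces of replicate 1. In replicate 2 they were covered to 77.1% to 93.1% by 9 to 14 pieces.

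The longest member of 2L differed. From 14526639 to 14584264 (57.6 kb, score 0.728) it was covered to 99.9% in replicate 1, by a piece of 57.2 kb inside it and one of 0.368 kb at its end. Replicate 2 covered only 24.2% of it, in 6 pieces of 1.35 to 5.56 kb. It had the lowest score and the lowest cover by replicate 2 among the 13 members of 50 kb or more. These 13 scored from 0.728 to 1.70, and replicate 2 covered a median of 84.6% of them.

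The members that came second on each arm ran from 44.0 to 74.7 kb. The one on X, from 1139176 to 1183130 (44.0 kb, score 1.47), was single in both lists, with 99.6% covered by replicate 1 and 95.6% by replicate 2. It was the longest of the 42 that had at least 90% of their length in 1 piece of each replicate, of which 11 lay on X and 7 to 9 on each other arm. The one on 2L, from 494952 to 539867 (44.9 kb, score 0.915), had 1 piece of replicate 1 over 99.9% and 6 of replicate 2 over 91.2%. The one on 2R, from 2388027 to 2438083 (50.1 kb, score 1.28), had 1 piece over 100.0% and 10 over 70.45%. On 3L, from 17946101 to 18017560 (71.5 kb, score 1.40), 2 pieces of replicate 1 covered 98.2% and 7 of replicate 2 covered 93.3%. On 3R, from 5733869 to 5808525 (74.7 kb, score 1.21), it was 1 piece over 94.2% and 13 over 79.3%.

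**Figure D5:**
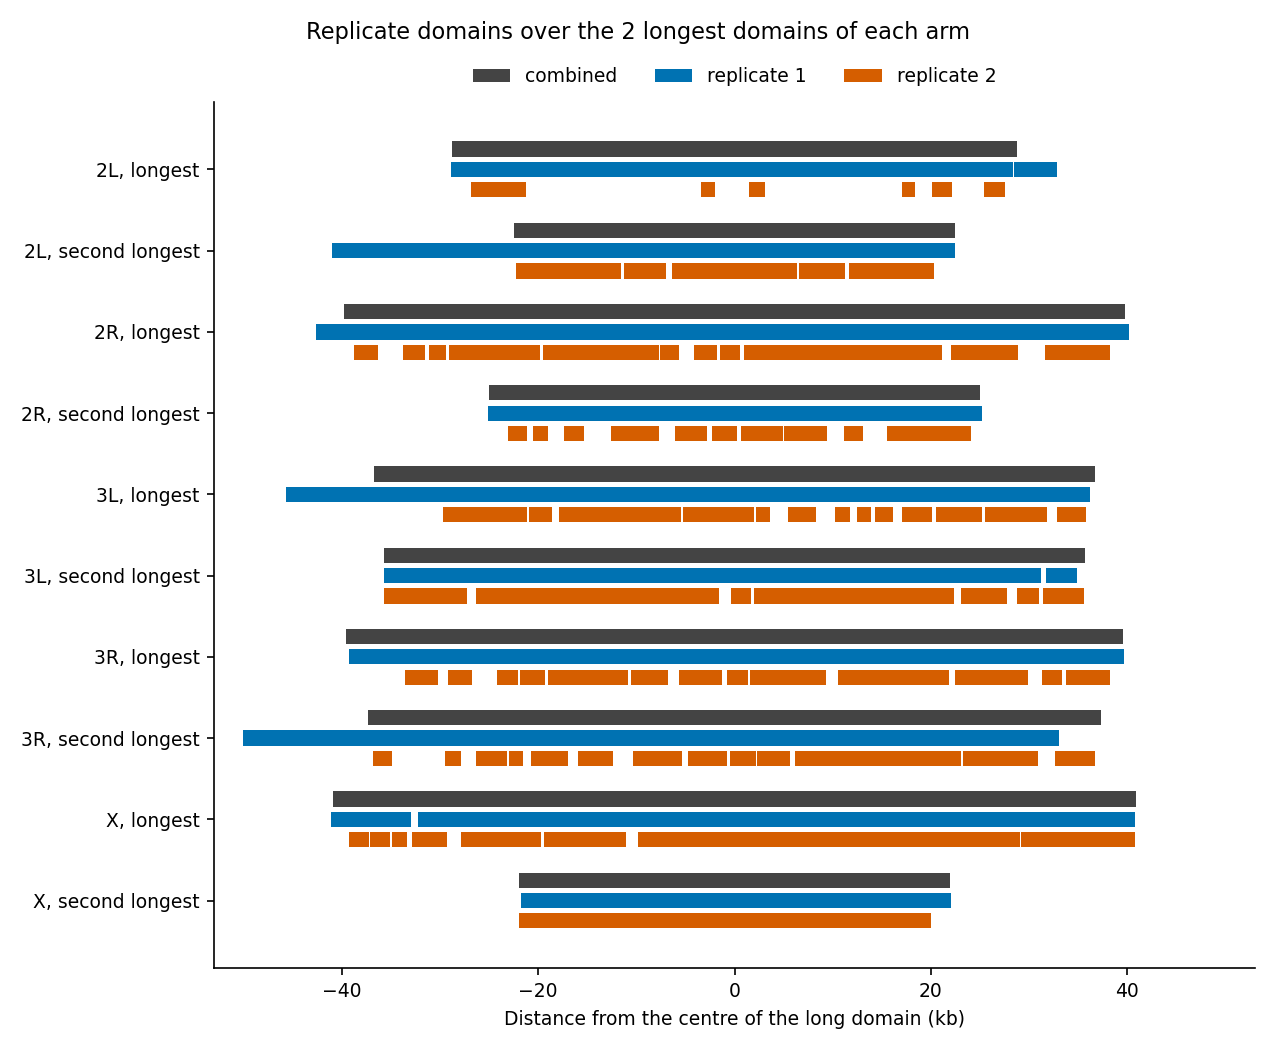
The 2 longest domains of each arm in the combined list (grey), drawn to scale from their centre (kb), with the domains of replicate 1 (blue) and replicate 2 (orange) that overlap them. Replicate 1 shows 1 or 2 blocks in each and replicate 2 up to 14, except on the second longest of X, which is a single block in both.

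The reverse pattern also occurred. The long domain with most pieces in replicate 1 lay on X from 1855992 to 1890511 (34.5 kb, score 1.05). Replicate 1 covered 72.1% of it in 7 pieces of 1.42 to 8.66 kb, and replicate 2 covered 96.3% with a single piece of 33.25 kb inside it.

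A few long domains had no domain of 1 of the replicates at all. No domain of replicate 1 touched 5 of them (0.593%), against 40.8% of all domains of the large arms, and each lay wholly inside a single domain of replicate 2. They lay on 2L from 4493429 to 4514081 (20.7 kb, score 0.492), on X from 4525690 to 4538426 (12.7 kb, 0.697), on 3R from 752306 to 764218 (11.9 kb, 0.703), on X from 2323953 to 2335254 (11.3 kb, 0.533) and on 3L from 2609912 to 2621164 (11.3 kb, 0.484). The nearest domain of replicate 1 was 1.28 to 17.8 kb away. Within the list of replicate 2, the domain over the one on 3R ranked 55 by score and that over the one on 2L from 4493429 ranked 1370.

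No domain of replicate 2 touched 17 others (2.02%), against 33.5% of all domains. Of the 17, 7 lay on 3R, 4 each on 2R and 3L, 2 on 2L and none on X. In 14 of them replicate 1 had a single piece. They measured 10.05 to 21.75 kb and scored 0.366 to 0.675, and the nearest domain of replicate 2 lay 0.037 to 44.3 kb away. The 5 longest lay on 3R from 23022219 to 23043967 (21.75 kb), on 3L from 22424365 to 22440670 (16.3 kb), on 3R from 20815444 to 20831583 (16.1 kb), on 2R from 15963723 to 15977302 (13.6 kb) and on 3L from 6295655 to 6308861 (13.2 kb). Replicate 1 covered each of these 5 wholly, with a single domain. The 22 long domains that lacked 1 replicate scored no higher than 0.703, below the median of 0.873 over all long domains.

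The replicates' own long domains mostly overlapped those of the combined list. Replicate 1 had 781 domains that reached 10 kb, and 647 of them (82.8%) overlapped a long domain of the combined list, and replicate 2 had 300, of which 265 (88.3%) did. The other 134 and 35 all overlapped shorter combined domains, which covered 93.7% and 84.4% of their bases. Of all replicate domains of any length on the large arms, 13.9% in replicate 1 and 20.1% in replicate 2 overlapped a long domain. Both sets of long domains were chosen by length from calls on the same reads, so nothing is read from the higher shares. In replicate 1, 22 domains reached into 2 or more long domains of the combined list, up to 3, and in replicate 2 none did. Of the 843 long domains, 661 (78.4%) overlapped a domain of 10 kb or more in replicate 1 and 254 (30.1%) one in replicate 2. Within each list, domains under the long domains had higher scores than the rest, with medians of 0.996 against 0.561 in replicate 1 and 0.669 against 0.555 in replicate 2. The combined list marked 49 regions as depleted, replicate 1 marked 11 and replicate 2 marked 2. None of these overlapped a long domain. The 49 come from the same list as the long domains and the others are few, so nothing is read from this.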

How the data were processed

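H3K9me1 ChIP-seq was made from larval nuclei, 2 ChIP and 2 input samples, grouped by their titles. The submitters' processing notes name Bowtie 0.12.7. The genome is FlyBase release 5, per the file headers. The authors deposited 3 region lists, with a score for each region; the score's scale, the region caller with its thresholds, the making of the combined list and the read depth: none is given in the sources used here. Borders and breaks depend on these settings.

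Enriched regions of 10 kb or more on the 5 large arms of the combined list were taken as long domains. Their overlap with the replicate lists was computed per base in Python 3.11.15 with numpy 2.4.6 and pandas 2.3.3, with code tested on simulated intervals against base-by-base counting. Members, named regions and alternatives were chosen with earlier results of these data known. Named regions are the 2 longest members of each arm, the 5 highest-scoring, the 5 least covered by each replicate, those with most pieces, the 3 clusters with most members (ties by span) and the 3 regions on each side of the length limit. Other named regions, windows and stretches were chosen after their values were seen. No test was made, because every measure comes from the calls that chose the members. The RefSeq gene table, on release 6, was not used, and no coordinate was converted.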

Additional observations from a re-analysis of the deposited data

How the results depend on the processing

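The 8 results took 58 alternative values. Of these, 34 stayed within 1 SD of the replicates, the 95% binomial interval of the median or share, or 1.5 times for counts. The binomial intervals treat neighbouring domains of the combined list as independent draws, so they do not measure the uncertainty of these values. For values averaged over 2 replicates, leaving out 1 moves the mean by less than that SD by construction. Asking for a score at or above the median of the combined list kept 841 of the 843 long domains, so that alternative could move little. With minimum lengths of 8, 15 and 20 kb in place of 10 kb, the median distance between long domains (48.5 kb) was 25.2, 131 and 232 kb, the share in clusters (31.3%) was 40.4%, 18.1% and 15.9%, and the median score (0.873) was 0.814, 0.9405 and 0.983. The number of long domains (843) was 370 from 15 kb and 201 from 20 kb; a higher minimum removes members by construction. Merging combined domains within 1 kb gave 1448 long domains, a median distance of 22.5 kb, 39.2% in clusters, a median score of 0.655 and 3.23 pieces per long domain in place of 2.09, with 10.5 breaks per 100 kb in place of 6.32; joining lengthens domains by construction. Merging replicate domains within 1 kb gave 2.19 breaks per 100 kb and 1.37 pieces, since joining removes breaks of up to 1 kb. Link distances of 2, 10 and 20 kb put 20.6%, 43.4% and 54.7% of the long domains in clusters. Of the 700 long domains covered to 50% in both replicates, 385 were covered to 80% and 148 to 90%. Over leaving out a replicate, the covered share ran from 76.5% to 93.4%, the pieces per long domain from 1.39 to 2.79 and the breaks per 100 kb from 2.28 to 10.4. With the long domains of each replicate's own list, chosen after seeing the data, their number ran from 300 to 781, the median distance from 53.5 to 173.9 kb and the share in clusters from 13.7% to 29.2%; the list of replicate 2 gave the values farther from those of the combined list, and the cause was not tested. No paired analysis was possible because neither input comes with regions to set against its ChIP sample, and no test was made. Read depth is unknown, so what it limits was not tested.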
